A study of Homo sapiens with 7 samples.

Results

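The genes described here encode the mitochondrial carriers and the import translocases, the proteins that move metabolites and newly made proteins across the mitochondrial membranes. They were taken from the count matrix by symbol: every row beginning with SLC25A, TIMM or TOMM followed by a number. This gave 62 of 14535 genes, of which 39 were SLC25A rows, 12 TIMM rows and 11 TOMM rows. Among them, TIMM8AP1, SLC25A5P5 and TOMM20P1 are pseudogenes and SLC25A21-AS1 is an antisense transcript. TOMM70 was listed under its older symbol TOMM70A. TIMM23, TIMM8A and SLC25A10 had no row under these symbols in the count matrix.

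All libraries came from A549, an established line of human lung adenocarcinoma epithelial cells. In 3 libraries (numbered 1 to 3) the cells had received doxorubicin, a topoisomerase II poison, at 100 nM for 24 h. In 4 libraries (numbered 4 to 7) they had undergone cyclic stretch at 15% elongation and 15 cycles per min for 24 h. In both groups, senescence-associated β-galactosidase was stained after 6 days and positive cells were sorted, so the comparison is between 2 kinds of cell that had passed the same gate. Untreated A549 cells and unsorted cells were not analysed here, and no difference below says which treatment moved a gene from its untreated level.

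Most mitochondrial proteins are made in the cytosol and imported. The TOM complex of the outer membrane is their shared entry gate. From there, the TIM23 complex takes proteins with a cleavable presequence into or across the inner membrane, helped by a motor on the matrix side. Proteins with several membrane spans, the SLC25 carriers among them, are escorted through the intermembrane space by the small TIM chaperones and inserted by the TIM22 complex. The SLC25 family exchanges nucleotides, phosphate, carboxylates, amino acids, cofactors and metal ions between cytosol and matrix, so the import genes and the carrier genes are machine and cargo of one route.

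The deposited values are estimated counts, which were scaled here to CPM, the count relative to each library's total after adjustment by TMM, a scaling that sets the bulk of genes level between libraries. Totals were 2611739 to 4644250 counts in the doxorubicin libraries and 5636386 to 7419778 in the stretch libraries, and a floor of 3 counts corresponds to 0.567 to 2.59 CPM and 0.321 to 0.401 CPM, respectively. The translation factor EIF4A2 alone took 16.1%, 30.6% and 10.8% of doxorubicin libraries 1, 2 and 3, against 1.67% to 2.87% of the stretch libraries. Doxorubicin library 2 was the shallowest after scaling and stood apart from the rest: its log-CPM over the tested members correlated at 0.744 to 0.785 with the stretch libraries, whereas doxorubicin library 3 correlated with them at 0.929 to 0.956. Of 10 markers of A549 and lung epithelium, 9 had a row and 7 were above the floor in every library, among them KRT8, KRT18 and AKR1B10. Fibroblast markers summed to 8.97 to 20.8 CPM over all libraries, 2 leukocyte genes (CD14 and LYZ) to 26.8 to 53.5 CPM, and the endothelial marker with a row, CDH5, to at most 0.963 CPM. Whether the libraries of a group stem from separate cultures is not in the labels, and each p-value is therefore a statement about the spread among these 7 libraries, part of which may be technical.

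Before scaling, the 62 genes together held 0.291%, 0.222% and 0.316% of all counts in doxorubicin libraries 1 to 3. Their share was 0.491%, 0.499%, 0.484% and 0.494% in stretch libraries 4 to 7. The groups did not overlap, and they did not overlap with EIF4A2 left out of the totals either, when the shares were 0.320% to 0.354% and 0.492% to 0.510%. Most genes shifted the same way on library totals, so a lower share after doxorubicin was not particular to these genes. With totals alone, 83.8% of all tested genes had a higher fitted level after stretch, with a median log2 difference of 0.71. A share of counts is relative and measures neither the number of cells nor the RNA per cell. In bulk libraries, fewer cells of a type and less RNA per cell cannot be told apart.

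No member passed the threshold between the groups. Of the 62, 54 had enough counts to be tested, and edgeR's quasi-likelihood F-test, adjusted after Benjamini and Hochberg over all 11230 tested genes, called 0 of the 54 at an adjusted p under 0.05, where 2.32% of all tested genes were called (0.356% higher after stretch and 1.97% higher after doxorubicin). At an unadjusted p under 0.05 there were 10 members on the stretch side (18.5%, against 8.66% of all tested genes) and 5 on the doxorubicin side (9.26%, against 14.5%). DESeq2 was run without the count filter, on all 62 members and 14535 genes, so its shares are over more genes than edgeR's. It called 3 members higher after stretch, where it called 2.79% of genes, and 1 higher after doxorubicin, where it called 6.26%. The 3 were SLC25A13, TIMM13 and TOMM6. Limma-voom called 0 members (1.66% of all genes), and limma-voom with library quality weights called 15 on the stretch side (23.4% of all genes) and 12 on the doxorubicin side (23.8%). A fitted difference of more than 2-fold was seen for 10 members, which is 18.5% of those tested, against 21.8% of all genes.

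By direction, 32 of the 54 tested members (59.3%) had a higher fitted level after stretch, against 51.2% of all tested genes, and the median log2 fold change (stretch minus doxorubicin throughout) was 0.26, against 0.02. The families differed in this. TIMM genes lay on the stretch side in 11 of 12 cases, with a median of 0.72. The 11 include the pseudogene TIMM8AP1 (0.38). The SLC25A genes were divided 17 to 17 (median 0.04), and the TOMM genes 4 to 4 (median 0.06). On the stretch side, the 17 of SLC25A include the antisense transcript SLC25A21-AS1 (0.54). With library totals in place of TMM, the median of all tested genes was 0.71, 49 of the 54 members lay on the stretch side (90.7%, against 83.8% of all), and the medians were 1.30 for TIMM, 0.74 for SLC25A and 0.75 for TOMM. The CPM ranges of the 2 groups did not overlap for 14 members (25.9%, against 21.4% of all tested genes). In 10 of them all stretch libraries were higher (18.5%, against 11.5%), and in 4 all doxorubicin libraries were higher (7.41%, against 9.88%). The 10 were TIMM8B, TIMM13, TIMM17B, TIMM44, TIMM50, TOMM6, TOMM22, SLC25A13, SLC25A33 and SLC25A38, and the 4 included SLC25A20, SLC25A24 and SLC25A45.

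**Figure D1:**
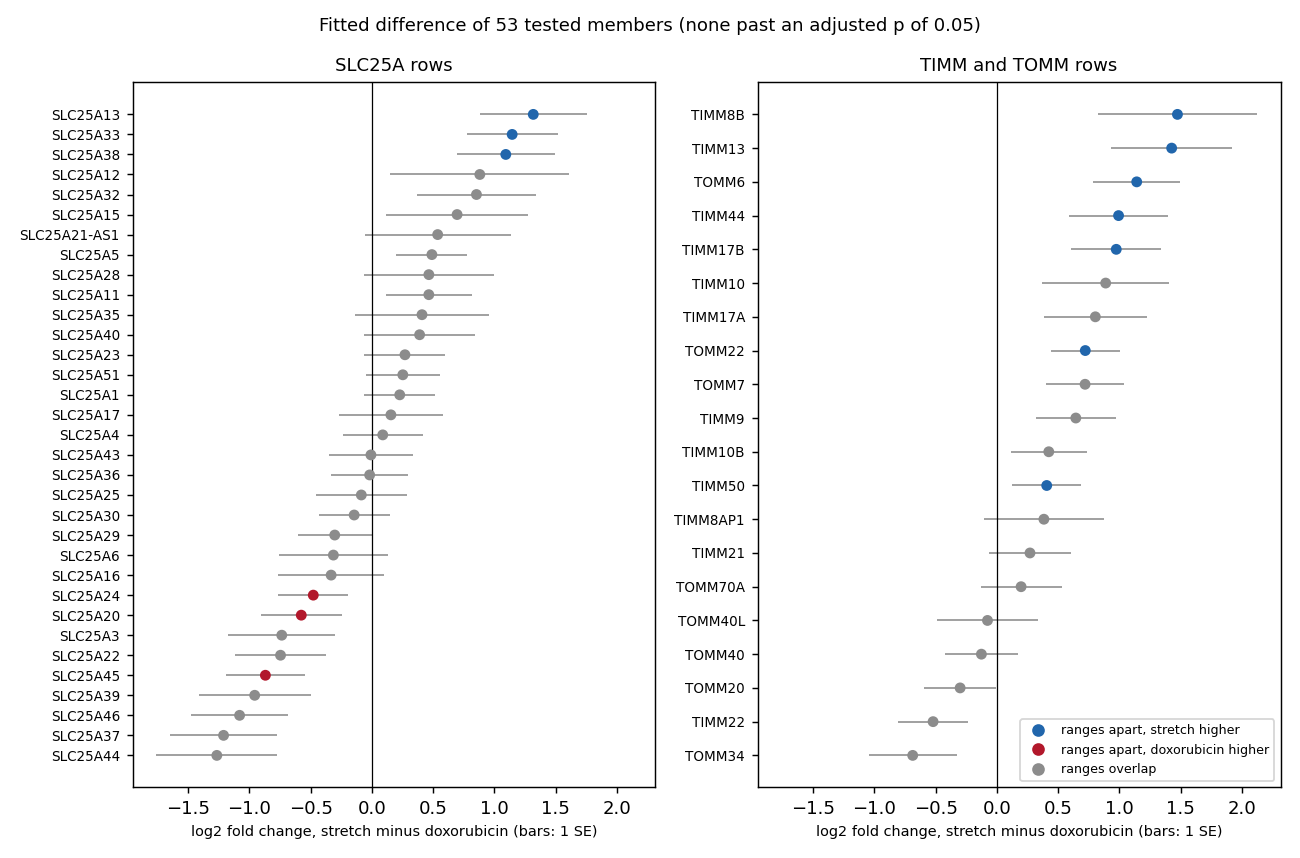
Fitted log2 fold change (stretch minus doxorubicin, bars 1 standard error) of 53 of the 54 tested members, SLC25A genes on the left and TIMM and TOMM genes on the right, each ordered by value; blue and red mark genes whose groups do not overlap. The TIMM genes, with the pseudogene TIMM8AP1 among them, lie right of 0 in 11 of 12 cases. The carriers lie on both sides, and no member passed the threshold.

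At the TOM gate, TOMM6 and TOMM22 were the genes whose groups did not overlap, and none of the 8 tested TOMM genes passed the threshold. The small subunit TOMM5 had too few counts to be tested. TOMM6, a small subunit that stabilises the complex (GRCh38 chr6:41787662-41789898, plus strand), had 62.3, 31.1 and 58.4 CPM in doxorubicin libraries 1 to 3. In stretch libraries 4 to 7 it had 77.7, 130, 98.4 and 145 CPM. All 4 stretch libraries were thus above all 3 doxorubicin libraries, and the fitted level was 2.21-fold higher in the stretched cells (log2 difference 1.14, SE 0.36, adjusted p = 0.0993 in edgeR's test, which misses the threshold). DESeq2 gave 1.17 with an adjusted p of 0.0178, and over the 16 alternatives the adjusted p ran from 0.000775 to 0.271.

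TOMM7, the small subunit also needed for PINK1 to be held on damaged mitochondria, had 180, 103 and 123 CPM after doxorubicin and 176, 252, 267 and 197 CPM after stretch. Its groups overlapped, because doxorubicin library 1 reached above stretch library 4 (log2 fold change 0.72, SE 0.32, adjusted p = 0.209). TOMM22, the central receptor, had 57.6, 53.6 and 81.7 CPM against 114, 110, 106 and 96.3 CPM. These did not overlap, and the log2 fold change was 0.72 (SE 0.28, adjusted p = 0.160).

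The main presequence receptor TOMM20 had 348, 382 and 219 CPM after doxorubicin, and 277, 252, 247 and 252 CPM after stretch. Doxorubicin libraries 1 and 2 were above every stretch library and library 3 was below every one of them, so the log2 fold change of -0.30 (SE 0.30) stands for no shared direction. TOMM40, the channel itself, ran from 66.3 to 106 CPM after doxorubicin and from 59.6 to 95.7 CPM after stretch. TOMM70A, the receptor for carrier precursors, ran from 13.8 to 30.6 CPM and from 23.9 to 33.1 CPM. Both overlapped widely, with log2 fold changes of -0.13 and 0.20. TOMM34, a cytosolic co-chaperone that binds precursors and heat shock proteins, had 48.5, 53.6 and 24.0 CPM after doxorubicin and 17.6, 25.5, 34.0 and 26.0 CPM after stretch, where again libraries 1 and 2 were high and library 3 was inside the stretch range (log2 fold change -0.69, SE 0.36, adjusted p = 0.270).

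**Figure D2:**
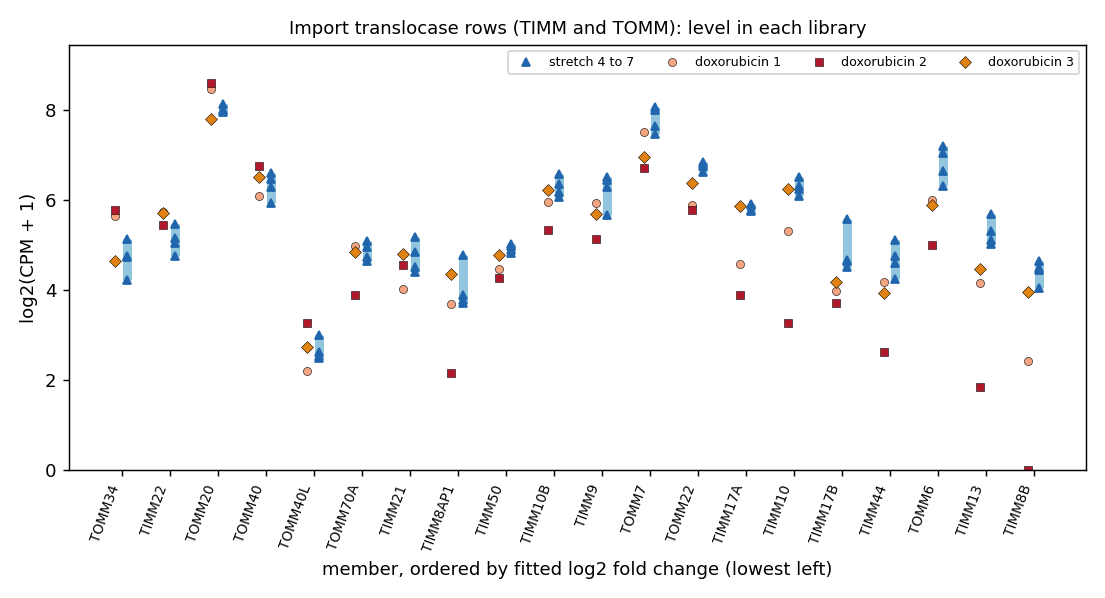
Level of each tested TIMM and TOMM gene as log2(CPM + 1), with a point for each doxorubicin library (1 to 3), blue triangles for stretch libraries 4 to 7 and a light bar for their range, ordered by fitted log2 fold change. For TIMM8B, TIMM13, TIMM44 and TOMM6 every stretch library is above every doxorubicin library, and doxorubicin library 2 is the lowest.

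All 4 tested genes of the TIM23 channel and its receptors lay on the stretch side, with log2 fold changes of 0.27 to 0.97. TIMM17A and TIMM17B encode alternative forms of a core subunit. TIMM17A had 22.6, 13.8 and 56.7 CPM after doxorubicin and 53.1 to 58.9 CPM after stretch, so that doxorubicin library 3 lay among the stretch libraries while libraries 1 and 2 lay far below (log2 fold change 0.80, SE 0.42, adjusted p = 0.274). TIMM17B had 14.7, 12.1 and 17.0 CPM against 46.6, 24.0, 24.3 and 21.7 CPM, with no overlap (0.97, SE 0.37, adjusted p = 0.148). Stretch library 4 stood well above the other 3, and the ratio of TIMM17A to TIMM17B counts there was 1.26, against 2.18 to 2.65 in stretch libraries 5 to 7 and 1.14 to 3.33 in the doxorubicin libraries.

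TIMM50, the receptor that receives presequences from TOM, had 21.1, 18.2 and 26.5 CPM after doxorubicin and 27.1, 30.3, 28.5 and 31.5 CPM after stretch. The groups only just failed to overlap (log2 fold change 0.41, SE 0.28, adjusted p = 0.400). TIMM21, which links TOM to TIM23, overlapped at 15.1 to 26.8 and 19.9 to 34.8 CPM. TIMM44, the anchor of the import motor at the channel's exit, had 17.1, 5.19 and 14.2 CPM against 17.9, 26.1, 23.1 and 33.6 CPM (log2 fold change 0.99, SE 0.41, adjusted p = 0.176). Here doxorubicin library 1 nearly met stretch library 4, and library 2 was the lowest.

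The small TIM chaperones had the highest median of the role groups with at least 3 tested genes, 1.16 over 4 genes. TIMM8B pairs with TIMM13 in a chaperone ring of the intermembrane space. It had 4.37, 0 and 14.6 CPM after doxorubicin, from 11, 0 and 77 counts, and 21.5, 20.8, 15.4 and 24.0 CPM after stretch. A count of 0 in doxorubicin library 2 allows up to 2.59 CPM. The fitted difference was 1.47 (SE 0.65, adjusted p = 0.202). TIMM13 (chr19:2425624-2427894, minus strand) had 16.7, 2.59 (3 counts, at the floor) and 21.0 CPM, then 33.6, 38.6, 31.4 and 50.1 CPM, with no overlap. Its log2 fold change was 1.43 (SE 0.49, adjusted p = 0.126), and 1.48 with an adjusted p of 0.0338 in DESeq2 (0.000813 to 0.303 over the alternatives).

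TIMM9 and TIMM10 form the other chaperone ring, the one that carries SLC25 precursors. TIMM9 had 60.0, 33.7 and 50.5 CPM after doxorubicin and 49.8, 85.5, 90.2 and 77.0 CPM after stretch. TIMM10 had 38.5, 8.65 and 74.7 CPM, against 78.4, 66.5, 75.0 and 89.6 CPM. For both genes the groups overlapped, through stretch library 4 for TIMM9 and through doxorubicin library 3 for TIMM10 (log2 fold changes 0.64, SE 0.33, and 0.89, SE 0.52). The insertase TIMM22 was the only TIMM gene on the doxorubicin side (its sign turned with library totals alone), with 51.6, 42.4 and 51.0 CPM against 43.3, 31.9, 25.8 and 34.3 CPM (log2 fold change -0.52, SE 0.28, adjusted p = 0.292). Its partner TIMM10B overlapped at 38.9 to 73.0 and 65.8 to 94.7 CPM.

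Among the carriers, those for adenine nucleotides exchange ADP for ATP across the inner membrane. SLC25A5 (ANT2) had 470, 520 and 390 CPM after doxorubicin, and 713, 618, 736 and 515 CPM after stretch. SLC25A6 (ANT3) had 1059, 1546 and 320 CPM against 694, 839, 763 and 839 CPM. SLC25A4 (ANT1) ran from 8.65 to 12.5 CPM and from 9.48 to 14.9 CPM. SLC25A5 overlapped only through stretch library 7 and doxorubicin library 2 (log2 fold change 0.49, SE 0.29, adjusted p = 0.330). SLC25A6 had doxorubicin libraries 1 and 2 above and library 3 below every stretch library (log2 fold change -0.31, SE 0.45), and with library 3 as the only doxorubicin library its fitted value turned to 1.31 (adjusted p = 0.0706). In every fit with a single doxorubicin library the spread comes from the stretch libraries only, and the lone library is assumed to vary as they do. The ratio of SLC25A5 to SLC25A6 counts was 0.444 and 0.336 in doxorubicin libraries 1 and 2, 1.22 in library 3, and 0.614 to 1.03 in the stretch libraries. Their transcripts share 700 of 875 aligned bases, and the sources used here do not say how reads were divided between them.

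The phosphate carrier SLC25A3 had 385, 583 and 162 CPM after doxorubicin and 134, 259, 218 and 292 CPM after stretch. Again libraries 1 and 2 were above and library 3 was within the stretch range (log2 fold change -0.73, SE 0.44, adjusted p = 0.330). SLC25A24, a calcium-regulated ATP-Mg/phosphate carrier, had 24.2, 32.0 and 32.5 CPM against 18.6, 18.6, 24.0 and 23.7 CPM. It did not overlap between groups, by a narrow margin (log2 fold change -0.48, SE 0.29, adjusted p = 0.334).

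Carriers of amino acids held the widest range of the larger role groups, from -1.26 to 1.32 over 7 genes. SLC25A13 (citrin, chr7:96120220-96322147, minus strand) exchanges aspartate for glutamate in the malate-aspartate shuttle. It had 21.0, 6.05 and 28.0 CPM after doxorubicin and 35.0, 48.5, 46.1 and 61.9 CPM after stretch. All stretch libraries were higher, and the fitted level was 2.49-fold higher (log2 fold change 1.32, SE 0.44, adjusted p = 0.116; DESeq2 gave 1.36 with an adjusted p of 0.0315, and the alternatives 0.000335 to 0.291). Its paralogue SLC25A12 (aralar) was near the floor after doxorubicin, with 0.397, 0 and 5.67 CPM, and had 3.07, 5.56, 4.43 and 6.78 CPM after stretch. Doxorubicin library 3 lay inside the stretch range for SLC25A12, and its log2 fold change of 0.88 rested on libraries 1 and 2.

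SLC25A38, a glycine carrier that feeds haem synthesis, had 8.74, 3.46 and 10.6 CPM against 11.9, 18.7, 17.4 and 21.1 CPM. The groups were separate (log2 fold change 1.09, SE 0.40, adjusted p = 0.140). SLC25A44, a carrier of branched-chain amino acids, ran the other way with 84.6, 239 and 42.3 CPM after doxorubicin and 37.0, 54.4, 55.0 and 54.1 CPM after stretch. That difference (-1.26, SE 0.49, adjusted p = 0.159) came from doxorubicin libraries 1 and 2, and library 3 fell inside the stretch range.

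Of the cofactor and nucleotide carriers, 7 were tested and 4 lay on the stretch side. SLC25A33, a pyrimidine nucleotide carrier, had 5.96, 4.32 and 7.94 CPM against 18.7, 15.0, 12.2 and 10.5 CPM. The stretch libraries were all higher (log2 fold change 1.14, SE 0.37, adjusted p = 0.109). SLC25A32, the folate carrier, had 14.3, 3.46 and 24.6 CPM against 18.4 to 33.3 CPM, and SLC25A51, the NAD carrier, had 27.7 to 51.6 against 45.9 to 56.8 CPM. Both overlapped.

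Neither the iron carriers nor the glutathione carriers had a gene whose groups were separate. SLC25A37 (mitoferrin 1) had 67.1, 180 and 57.8 CPM after doxorubicin and 63.8, 44.0, 34.4 and 31.7 CPM after stretch. SLC25A28 (mitoferrin 2) had 3.57, 0.865 and 3.78 CPM against 2.69 to 7.08 CPM. The difference in SLC25A37 was -1.21 (SE 0.43, adjusted p = 0.135) with an overlap through stretch library 4, and that in SLC25A28 was 0.47. SLC25A39, needed for glutathione uptake, had 150, 347 and 69.6 CPM against 89.0, 111, 98.2 and 88.1 CPM, so that library 3 was below and libraries 1 and 2 were above all stretch libraries (log2 fold change -0.96, SE 0.46, adjusted p = 0.236). Its paralogue SLC25A40 ran from 6.05 to 7.94 and from 4.41 to 15.3 CPM.

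SLC25A20, the carnitine and acylcarnitine carrier of fatty acid oxidation, had 16.7, 13.8 and 10.8 CPM against 6.68, 9.52, 9.95 and 10.4 CPM, a narrow separation (log2 fold change -0.58, SE 0.33, adjusted p = 0.313). SLC25A45 had 17.1, 20.8 and 12.5 CPM against 10.4, 9.74, 8.22 and 7.64 CPM, also separate (-0.87, SE 0.32, adjusted p = 0.144). SLC25A46, an outer membrane protein of mitochondrial dynamics, had 111, 143 and 47.6 CPM against 30.0, 49.0, 51.1 and 58.6 CPM, with library 3 inside the stretch range (-1.08, SE 0.39, adjusted p = 0.140). The citrate carrier SLC25A1, the oxoglutarate carrier SLC25A11 and the uncoupling-protein-like SLC25A30 overlapped, at 38.6 to 54.5, 27.7 to 61.6 and 20.6 to 24.6 CPM after doxorubicin and 42.1 to 67.2, 44.4 to 69.4 and 16.0 to 23.0 CPM after stretch.

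The other 12 tested members all had overlapping groups, with log2 fold changes of -0.74 to 0.70. The largest toward doxorubicin was SLC25A22, a glutamate carrier, at 26.7 ± 12.6 CPM after doxorubicin (SD, n = 3) and 15.5 ± 2.85 CPM after stretch (SD, n = 4). The largest toward stretch was SLC25A15, the ornithine carrier of the urea cycle, at 2.38 ± 2.69 and 4.71 ± 0.648 CPM. Neither sign held throughout: SLC25A22 turned to 0.17 with library totals alone and to 0.11 with doxorubicin library 3 alone, and SLC25A15 to -0.20 with library 3 alone. SLC25A23 and SLC25A25, relatives of SLC25A24 that also carry ATP-Mg and phosphate, had means of 46.8 and 55.8 CPM and of 5.42 and 5.32 CPM (doxorubicin, then stretch). SLC25A29, a carrier of basic amino acids, had means of 30.7 and 25.0 CPM, and SLC25A36, a pyrimidine nucleotide carrier like SLC25A33, had 38.3 and 38.4 CPM. SLC25A33 and SLC25A36 thus differed in their fitted values (1.14 and -0.02), a difference that was not tested. SLC25A16, SLC25A17 (a peroxisomal member of the family), SLC25A35, SLC25A43, SLC25A21-AS1 and TOMM40L had log2 fold changes of -0.33, 0.16, 0.41, -0.01, 0.54 and -0.08.

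**Figure D3:**
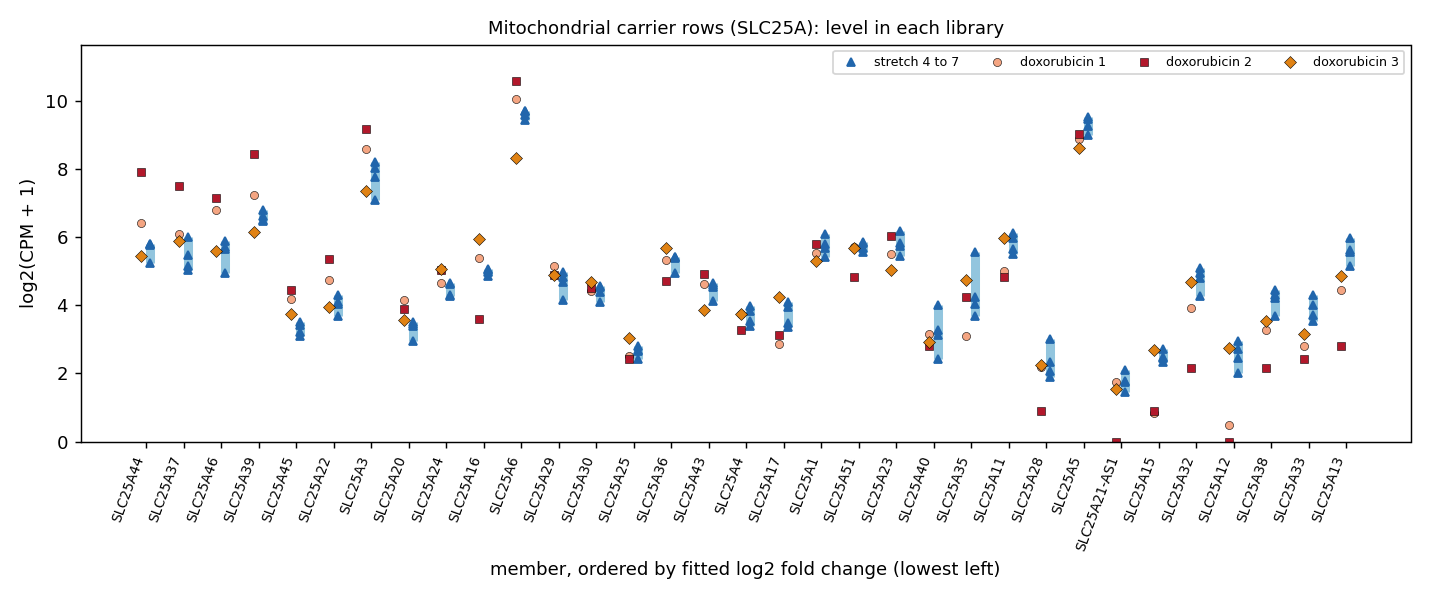
Level of 33 tested SLC25A genes as log2(CPM + 1), with a point for each doxorubicin library (1 to 3), blue triangles for stretch libraries 4 to 7 and a light bar for their range, ordered by fitted log2 fold change. SLC25A45 is higher in all 3 doxorubicin libraries and SLC25A13 in all 4 stretch libraries, and for SLC25A3, SLC25A39, SLC25A44 and SLC25A46 doxorubicin library 3 is far below libraries 1 and 2.

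The untested members were SLC25A14, SLC25A21, SLC25A26, SLC25A42, SLC25A5P5, TOMM20L, TOMM20P1 and TOMM5, which had at most 16 counts in any library. TIMM8AP1 is a processed pseudogene 97.6% identical to TIMM8A over its 295 bases, so reads of TIMM8A, which had no row of its own, could have been assigned to TIMM8AP1. It had 11.9, 3.46 and 19.5 CPM after doxorubicin and 26.3, 12.1, 13.8 and 12.7 CPM after stretch, which overlapped. Exons of 25 tested members overlap a gene on the opposite strand, among them TIMM8B with SDHD, TIMM13 with TMPRSS9, TOMM6 with USP49 and SLC25A11 with RNF167, and the sources used here do not say whether counting used the strand. Exons of 8 tested members overlap a gene on the same strand, among them TIMM13 with LMNB2 and TOMM6 with AL365205.1. The values of these genes are uncertain to that extent.

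Many of these differences rested on doxorubicin libraries 1 and 2. For each doxorubicin library, the share of members inside the stretch range was near that of all tested genes. Library 3 lay inside the range of the 4 stretch libraries for 26 of the 54 tested members (48.1%, against 43.3% of all tested genes), whereas library 1 did so for 15 (27.8%, against 29.1%) and library 2 for 9 (16.7%, against 16.7%). For the TIMM genes, the median log2 distance from the stretch mean was -0.63 in library 1, -1.58 in library 2 and -0.11 in library 3. The same medians were 0.02, -0.20 and 0.01 for the SLC25A genes, -0.27, -0.28 and -0.15 for the TOMM genes, and -0.01, -0.28 and 0.00 for all tested genes. The TIMM genes were thus furthest from stretch in the library that also had the largest share of EIF4A2 and the fewest counts, and the part of those properties in the difference was not tested.

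With library 3 as the only doxorubicin library, the TIMM median was 0.14 with 8 of 12 genes on the stretch side, the TOMM median 0.18 with 6 of 8, and the SLC25A median 0.03. Library 3 was the doxorubicin library closest to the stretch libraries, so leaving it out favours separation of the groups. Over all genes, calls rose from 0.356% to 16.0% toward stretch and from 1.97% to 16.2% toward doxorubicin. Without library 3, edgeR's quasi-likelihood test called 13 members higher after stretch (24.1%, against 16.0% of all genes) and 9 higher after doxorubicin (16.7%, against 16.2%). The 13 were SLC25A11, SLC25A12, SLC25A13, SLC25A15, SLC25A32, SLC25A33, SLC25A38, TIMM8B, TIMM10, TIMM13, TIMM17A, TOMM6 and TOMM22. The 9 included SLC25A3, SLC25A22, SLC25A37, SLC25A39, SLC25A44, SLC25A45, SLC25A46 and TOMM34. TOMM6 and SLC25A13 lay on the same side with library 3 alone, at 0.96 and 0.79.

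**Figure D4:**
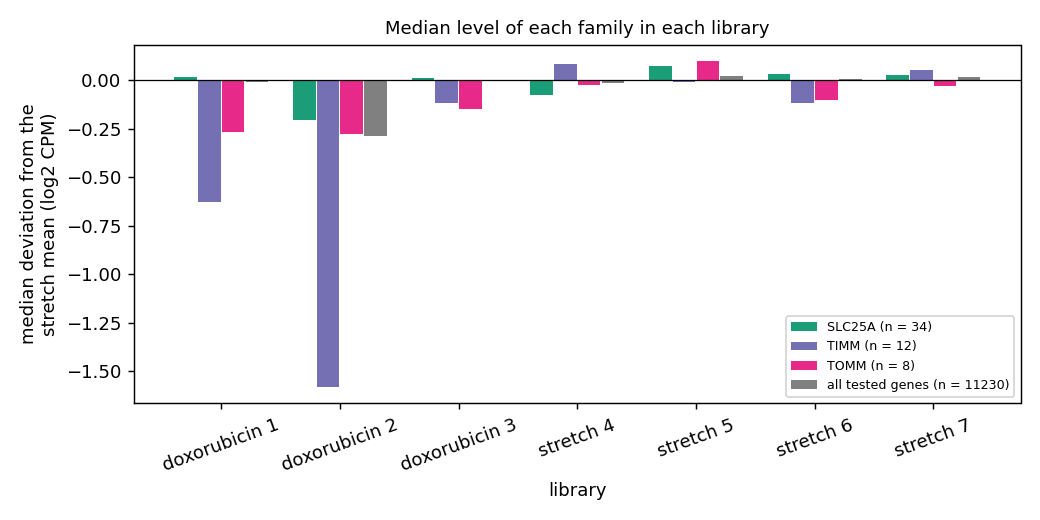
Median log2 distance from the mean of the 4 stretch libraries (bars), for the tested SLC25A, TIMM and TOMM genes and all tested genes, in each library. The TIMM genes are at -0.63, -1.58 and -0.11 in doxorubicin libraries 1, 2 and 3, while the carriers are near 0 in libraries 1 and 3.

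The rest of the import pathway was looked at through a list of 30 genes (processing peptidases, chaperones, the sorting and assembly machinery, and oxidative folding of small TIMs). Of these, 27 were tested, 0 were called by edgeR, 19 lay on the stretch side (70.4%, against 51.2% of all tested genes) and the median log2 fold change was 0.46. At an unadjusted p under 0.05 there were 3 on the stretch side (11.1%, against 8.66%) and 1 on the doxorubicin side (3.70%, against 14.5%). OXA1L, the inner membrane insertase for proteins made or sorted from the matrix, had 16.3, 5.19 and 10.8 CPM after doxorubicin and 23.2, 28.6, 22.4 and 33.3 CPM after stretch, without overlap (log2 fold change 1.27, SE 0.39, adjusted p = 0.0933). MTX2, an outer membrane partner of the sorting machinery, had 31.4, 16.4 and 55.8 CPM against 65.7 to 85.7 CPM (1.06, adjusted p = 0.140). DNAJC15, a co-chaperone of the import motor, had 13.9, 3.46 and 11.3 CPM against 3.77 to 5.87 CPM (-1.14, adjusted p = 0.150).

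Among 22 tested transporters of the mitochondrial membranes outside the symbol rule, 14 lay on the stretch side (63.6%, against 51.2% of all tested genes), the median was 0.09, and 1 gene passed the threshold, toward doxorubicin, where 1.97% of all tested genes did. UCP2, an uncoupling protein of the SLC25 family, was higher after doxorubicin, with 325, 653 and 99.0 CPM against 72.8, 71.8, 74.1 and 70.6 CPM. Every doxorubicin library was above every stretch library and the fitted level was 4.95-fold higher after doxorubicin (log2 fold change -2.31, SE 0.50, adjusted p = 0.0431 in edgeR's quasi-likelihood F-test). Without doxorubicin library 2 the value was -1.54 (adjusted p = 0.0624), and with library 3 alone -0.44 (adjusted p = 0.380, with the spread of the stretch libraries only). The adjusted p ran from 4.51e-07 to 0.380 over the 16 alternatives, and leaving out any library except doxorubicin 3 ended the call (0.0624 to 0.181). The call also ended with upper-quartile factors (0.0510), a mean of at least 10 CPM (0.0565), limma-voom (0.0810) and library totals alone, where the value was -1.20 (adjusted p = 0.150). MCU, the pore of the calcium uniporter, had 17.1, 6.05 and 21.9 CPM against 37.9, 54.6, 47.6 and 59.9 CPM (1.67, SE 0.40, adjusted p = 0.0566), and SFXN5, a sideroflexin, had 35.3, 47.6 and 9.83 CPM against 9.68 to 14.4 CPM (-1.34, adjusted p = 0.127).

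Of 17 tested regulators of mitochondrial biogenesis and import stress, 10 lay on the stretch side (58.8%, against 51.2% of all tested genes), the median was 0.10, and 1 passed the threshold, toward doxorubicin (1.97% of all tested genes). ATF5, a transcription factor of the mitochondrial unfolded protein response that is itself imported when import works, was higher after doxorubicin. It had 26.6, 43.2 and 27.2 CPM against 14.3 CPM in stretch library 4 and 9.63 to 10.6 CPM in stretch libraries 5 to 7. The 3 doxorubicin libraries were all above the 4 stretch libraries, and the fitted level was 2.87-fold higher after doxorubicin (log2 fold change -1.52, SE 0.32, adjusted p = 0.0378 in edgeR's test). With library 3 alone the value was -1.28 (adjusted p = 0.102, with the spread of the stretch libraries only). Over the alternatives the adjusted p ran from 3.7e-05 to 0.250, and leaving out doxorubicin library 1 or any stretch library ended the call (0.0624 to 0.173). It also ended with upper-quartile factors (0.0504) and with library totals alone, where the value was -0.70 (adjusted p = 0.250). The matrix protease subunit CLPP had 33.8, 62.3 and 15.3 CPM against 12.8 to 21.0 CPM (-1.07, adjusted p = 0.172), and the inner membrane protease YME1L1 had 52.0, 23.3 and 58.6 CPM against 78.5 to 104 CPM (0.99, adjusted p = 0.133).

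TIMM and TOMM genes with short annotated transcripts tended to lie further toward stretch. The assay amplifies a part of each transcript, so the annotated length is not the length of the part counted. The shortest of these transcripts, at 295 bases, is that of the pseudogene TIMM8AP1. Over the 54 tested members, the log2 fold change had a Spearman rho of -0.44 with transcript length (that of the longest coding transcript, or of the longest transcript for TIMM8AP1 and SLC25A21-AS1, which have no coding one), and over the 20 tested TIMM and TOMM genes of -0.65. It was -0.23 over the 34 SLC25A genes and -0.09 over all tested genes with a length. The points share the same 7 libraries and genes are not independent replicates, so this is a description. With GC content, rho was -0.11 over the members and -0.22 over all genes. The transcript lengths were 637 bases for TOMM6, 819 for TIMM8B and 680 for TIMM10, against 3194 for TIMM22 and 3387 for TOMM20. TOMM20 and SLC25A3 are the 2 tested members that host small nucleolar RNAs (SNORA14B and SNORA53). Both were higher in doxorubicin libraries 1 and 2 than in every stretch library. So were members that host none, among them SLC25A6, SLC25A44, SLC25A46 and TOMM34. Counted singly, library 1 was above every stretch library for 16 of the 54 tested members and 3968 of 11230 tested genes. Library 2 gave the same 2 counts, and genes above in both libraries were not counted.

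**Figure D5:**
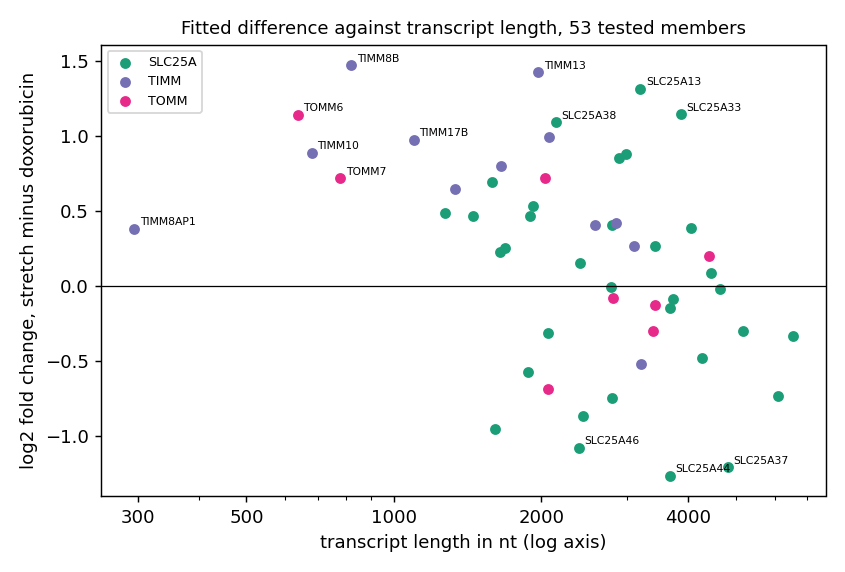
Fitted log2 fold change (stretch minus doxorubicin) of 53 tested members against transcript length in bases, on a log axis, coloured by family. Short TIMM and TOMM genes lie above 0, with a Spearman rho of -0.65 over 20 genes, and the carriers show a weaker slope (-0.23 over all 34 tested).

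Promoters were read because many import genes are known targets of nuclear respiratory factor 1 (NRF1) and of the ETS-type factor GABP. RefSeq (GRCh38.p14) had a promoter, from 250 bases before to 50 bases after the start, for 46 of the 54 tested members. The NRF1 motif (GCGC, any base, then TGCGC), searched on both strands, was in 7 of them (15.2%), against 12.0% of the promoters of all tested genes and 6.28% of all 27305 promoters. The sites of the 7 are shown because the 7 genes fall on both sides of the comparison. Each is a 30-base window, read 5′ to 3′ on the strand of the gene, with the motif in capitals.
TOMM7, chr7:22822844-22822873, minus strand: gccgtgtgtgGCGCCTGCGCacctcctttc
SLC25A11, chr17:4940044-4940073, minus strand: tttgcgctgcGCGCCTGCGCccgcgccggc
SLC25A51, chr9:37904103-37904132, minus strand: gtcacagtctGCGCCTGCGCgggccccggc
TOMM40, chr19:44891022-44891051, plus strand: gagccaatagGCGCAGGCGCtgcgagccaa
TOMM20, chr1:235128919-235128948, minus strand: ttcgcccactGCGCAGGCGCaggagccgcg
TOMM34, chr20:44960392-44960421, minus strand: ttcgccgccgGCGCTTGCGCccggaaggtg
SLC25A3, chr12:98593462-98593491, plus strand: cccggaacgcGCGCCTGCGCagaacgaatc

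The first 3 had fitted values on the stretch side (0.72, 0.47 and 0.25) and the last 4 on the doxorubicin side (-0.13, -0.30, -0.69 and -0.73), and none passed the threshold. The ETS motif CCGGAAGT, on both strands, was in 8 of the 46 promoters (17.4%), against 9.35% of the promoters of all tested genes and 4.44% of all promoters. On the stretch side, 5 genes carry it: TOMM6 (1.14), TIMM10 (0.89), TIMM10B (0.42), TOMM70A (0.20) and SLC25A17 (0.16). On the doxorubicin side, 3 carry it: SLC25A46, with 2 sites (-1.08), SLC25A24 (-0.48) and TOMM20 (-0.30). The windows of TOMM6, TIMM10 and TOMM20 show the same letters in genes of both sides.
TOMM6, chr6:41787603-41787632, plus strand: gccggtagcagCCGGAAGTgccagaccgga
TIMM10, chr11:57530749-57530778, minus strand: ggactttcctcCCGGAAGTaacccacgtgc
TOMM20, chr1:235128841-235128870, minus strand: gttgactgggaCCGGAAGTggcgtgtgctc

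A match of letters is a description and not a binding site. The gene for NRF1 itself, named after its value was seen, had 25.8, 24.2 and 36.9 CPM after doxorubicin and 18.3, 22.1, 21.4 and 17.5 CPM after stretch. Its groups did not overlap, and its log2 fold change was -0.56 (SE 0.29, adjusted p = 0.271).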

How the data were processed

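RNA of 7 A549 libraries was prepared with Trizol and an Ion AmpliSeq transcriptome kit, per the labels' protocols. Its gene-specific primers amplify a part of every transcript, so levels are compared here within a gene and not between genes. The authors deposited 1 table, whose whole numbers were taken as estimated counts per gene, rounded and not normalised. Per the submitters' processing notes, fastp 0.20.1, Salmon 1.9 and build GRCh38 were used. The sources used here do not name the annotation or the use of strand.

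Of 14647 rows, 64 symbols in several rows were summed, none of them a member, and Metazoa_SRP (at most 0.00861% of a library) was left out. Groups and replicate numbers came from sample titles. With R 4.3.3 and edgeR 4.0.16, genes were kept by filterByExpr, scaled by TMM and compared (stretch minus doxorubicin) by glmQLFTest after a robust glmQLFit, edgeR's quasi-likelihood method. P-values were adjusted over 11230 genes after Benjamini and Hochberg, with 0.05 as the threshold. A standard error is the size of the log2 difference over the root of its F value. A gene's groups do not overlap where every CPM of a group lies above every CPM of the other. No pair of libraries agreed within sampling noise (chi-square per degree of freedom at least 8.02 over 21 pairs). PCR reads without molecular identifiers are not independent molecules, so floors cover counting error only. The alternatives were RLE, upper-quartile and total scaling, no count filter, only genes averaging 10 CPM or more, DESeq2 1.42.0, voom in limma 3.58.1 with and without quality weights, doxorubicin library 3 alone, and leaving out each library.

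The members and lists were chosen with earlier results of these data known. Members named are those past the threshold, up to 8 members a direction with the greatest fitted difference, if they average 10 CPM or more and do not overlap, a fixed set of well-known carriers and translocases whatever their values, and the member with the highest mean of each role group, 41 in all. Of each of the 3 pathway lists, genes past the threshold and up to 3 with the lowest p are named. Coordinates, lengths and overlaps come from GENCODE release 29 (GRCh38), and promoters from RefSeq (GRCh38.p14). The result of 1 member is not reported here, though counts and medians include it.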

Additional observations from a re-analysis of the deposited data

Results flagged for a closer look

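In 4 of 51 genes examined, stretch library 4 lay apart from the other 3 by more than Dixon's 95% critical value for 4 samples. At that level chance alone flags about 1 in 20 groups, whichever library lies apart. The genes share the same libraries and are not independent, so that rate is no measure for 4 genes flagged in a single library. Stretch library 4 also stood apart over all tested genes. Its log-CPM correlated at 0.939 to 0.946 with the other stretch libraries, which correlated at 0.973 to 0.978 with each other. The share of all tested genes flagged in this way was not computed. TIMM17B had 46.6 CPM there, against 21.7 to 24.3 CPM in the others. TIMM8AP1, the pseudogene of TIMM8A, had 26.3 CPM against 12.1 to 13.8 CPM. TOMM20 had 277 CPM against 247 to 252 CPM, and SLC25A44 had 37.0 CPM, below the 54.1 to 55.0 CPM of the others. For TIMM17B the lowest stretch library was still above every doxorubicin library, and for the other 3 genes the groups overlapped.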

How the results depend on the processing

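No paired analysis was possible because the groups share no replicate number. Members called numbered 0 in each direction in the main test and in every alternative except 3: DESeq2 called 3 for stretch and 1 for doxorubicin, quality weights 15 and 12, and leaving out 1 library 0 to 13 and 0 to 9, with all calls made without doxorubicin library 3.

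Family medians (0.04 for SLC25A, 0.72 for TIMM, 0.06 for TOMM) became 0.74, 1.30 and 0.75 with library totals alone, a setting that moves the median of all genes from 0.02 to 0.71. The TIMM median was 0.14 with doxorubicin library 3 alone. The SLC25A median was 0.13 with no count filter and -0.059 at a mean of at least 10 CPM, and the TOMM median was 0.23 at that mean and 0.31 with quality weights. Leaving out 1 library gave -0.044 to 0.19 for SLC25A, 0.46 to 1.04 for TIMM and 0.03 to 0.15 for TOMM.

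Among the genes named by rule, signs turned with library totals alone for SLC25A20 (0.19), SLC25A24 (0.23), SLC25A3 (0.26), SLC25A30 (0.55), SLC25A39 (0.12), SLC25A6 (0.72), TIMM22 (0.18), TOMM20 (0.55), TOMM34 (0.19), TOMM40 (0.64) and NRF1 (0.080). With quality weights they turned for SLC25A28 (-0.0035), SLC25A4 (-0.026), TOMM40 (0.18) and TOMM70A (-0.14). With doxorubicin library 3 alone they turned for SLC25A11 (-0.11), SLC25A12 (-0.17), SLC25A3 (0.49), SLC25A39 (0.49), SLC25A4 (-0.029), SLC25A44 (0.26), SLC25A46 (0.0026), SLC25A6 (1.31), TIMM17A (-0.0058), TIMM8AP1 (-0.25), TOMM20 (0.24), TOMM34 (0.12), SFXN5 (0.28) and CLPP (0.19). Without doxorubicin library 2 they turned for SLC25A4, SLC25A6, TOMM40 and TOMM70A, and without stretch library 6 for SLC25A4. Over all single omissions SLC25A4 ran from -0.029 to 0.20, SLC25A6 from -0.70 to 0.19, TOMM40 from -0.28 to 0.038 and TOMM70A from -0.043 to 0.40. Of the 13 other tested members, signs turned with totals alone for SLC25A16 (0.17), SLC25A22 (0.17), SLC25A25 (0.55), SLC25A29 (0.43), SLC25A36 (0.59), SLC25A43 (0.85) and TOMM40L (0.66). With doxorubicin library 3 alone they turned for SLC25A15 (-0.20), SLC25A17 (-0.52), SLC25A22 (0.11), SLC25A35 (-0.14), SLC25A43 (0.69) and TIMM21 (-0.030). None of the values in this paragraph passed the threshold, and the cause was not tested.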
